A study of Mus musculus with 33 samples.

Results

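The 13 protein-coding genes of the mouse mitochondrial chromosome were followed in single germinal vesicle (GV) oocytes of the Nlrp5 mouse line. They were taken as all rows of the deposited count table that lie on chromosome MT and whose symbols begin with mt-, 13 of 35321 genes in all. Ribosomal and transfer RNA genes of that chromosome were not analysed here. The oocytes came from 3-week-old C57BL6/Babr females that were Nlrp5+/+ (n = 10 oocytes), Nlrp5+/- (n = 16) or Nlrp5-/- (n = 7), where the mutant allele carries a short CRISPR deletion. Nlrp5 encodes NALP5, a maternal protein of the subcortical maternal complex. Knockout and heterozygous oocytes came from the same litters, whereas most wild-type donors were taken from the parent colony. The polyadenylated RNA of each oocyte was sequenced after its separation from the DNA. Oocytes are classed by their chromatin as non-surrounded nucleolus (NSN), in which transcription is active, or surrounded nucleolus (SN), in which it has largely stopped. The stage of the sequenced oocytes was not seen under the microscope but was assigned in the study from the RNA itself, with marker genes of the stages. None of the 13 genes was among these markers. There were 4 NSN and 6 SN oocytes of Nlrp5+/+, 9 and 7 of Nlrp5+/-, and 4 and 2 of Nlrp5-/-, as read from the published staging plots. For Nlrp5+/- the wording of the study gives fewer oocytes per stage than its own plots. Oocyte 15, of Nlrp5-/-, had no stage.

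The mitochondrial chromosome encodes core subunits of the respiratory chain. It is transcribed from both strands as long precursors, which are cut, mostly at transfer RNAs, into single messengers that receive a short poly(A) tail. The genes mt-Nd1 to mt-Nd6 and mt-Nd4l encode subunits of complex I, which oxidizes NADH. The gene mt-Cytb encodes cytochrome b of complex III, mt-Co1, mt-Co2 and mt-Co3 encode the core of cytochrome c oxidase (complex IV), and mt-Atp6 and mt-Atp8 encode parts of ATP synthase (complex V). An oocyte holds very many mitochondria, which the embryo inherits. Counts were measured per oocyte and relative to its other RNA, so fewer mitochondria and less RNA in each cannot be told apart.

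Since each library was 1 oocyte and no mouse was named, the oocytes of a genotype and stage were treated as 1 sample. No test was made. SDs are over oocytes and serve as a description. A normalized count is a count divided by a size factor that equalizes the depth of the oocytes, and fold changes are differences of log2 of the mean normalized count plus 1. A gene was taken as different where the means were at least 2-fold apart.

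The genome itself holds copies of mitochondrial sequence, which bears on what can be counted. Positions 6390 to 11042 of the mitochondrial chromosome had a match on the minus strand of chromosome 1 (GRCm39, chr1:24650616-24655269) with an identity of 99.94%, that is 2 mismatches and 1 gap. The genes that lie wholly inside it are mt-Co2, mt-Atp8, mt-Atp6, mt-Co3 and mt-Nd4l, whose copies had no mismatch, and mt-Nd3, with 1. The whole of mt-Atp8 (MT:7766-7969, + strand) is given as the clearest case, since it was the same in both places (copy at chr1:24653690-24653893). For mt-Nd3 (MT:9459-9806, + strand) the first 43 bases are given with the only differing base in capitals, counted from the 5′ end of the gene (T3C, copy at chr1:24652158-24652200). The same is given for mt-Co1 (MT:5328-6872, + strand) from base 1063 to 1106, where the copy begins (A1066T, copy at chr1:24655226-24655269). Sequences are from GENCODE transcripts and GRCm39, and the copies are written on the minus strand.
mt-Atp8, mitochondrial and chromosome 1 copy: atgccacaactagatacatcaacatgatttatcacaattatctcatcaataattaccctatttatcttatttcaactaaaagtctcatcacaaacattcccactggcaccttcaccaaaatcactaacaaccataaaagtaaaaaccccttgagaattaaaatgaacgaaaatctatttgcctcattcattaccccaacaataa
mt-Nd3, mitochondrial: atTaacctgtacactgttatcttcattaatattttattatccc
mt-Nd3, chromosome 1 copy: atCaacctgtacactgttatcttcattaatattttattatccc
mt-Co1, mitochondrial: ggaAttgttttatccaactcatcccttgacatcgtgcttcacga
mt-Co1, chromosome 1 copy: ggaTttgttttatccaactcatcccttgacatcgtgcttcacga

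Every window of 150 bases, the length of a read, matched the nuclear genome exactly in mt-Co2, mt-Atp8, mt-Atp6, mt-Co3 and mt-Nd4l. In mt-Nd3 it was 98.5% of windows. In mt-Nd4 it was 59.2% and in mt-Co1 23.6%. No window of mt-Nd1, mt-Nd2, mt-Nd5, mt-Nd6 or mt-Cytb did. The other genes lie at MT:2751-3707 (mt-Nd1), MT:3914-4951 (mt-Nd2), MT:7013-7696 (mt-Co2), MT:7927-8607 (mt-Atp6), MT:8607-9390 (mt-Co3), MT:9877-10173 (mt-Nd4l), MT:10167-11544 (mt-Nd4), MT:11742-13565 (mt-Nd5) and MT:14145-15288 (mt-Cytb), all on the + strand, and at MT:13552-14070 on the minus strand (mt-Nd6). A second match lies on chromosome 2 (chr2:22477300-22480546), with an identity of 97.36%, and covers all of mt-Co1. The first 120 bases of mt-Co1 differ from it at 3 places, C54A, A60G and G87A, counted from the start of the gene (copy at chr2:22479540-22479659, minus strand), given in capitals.
mt-Co1, mitochondrial: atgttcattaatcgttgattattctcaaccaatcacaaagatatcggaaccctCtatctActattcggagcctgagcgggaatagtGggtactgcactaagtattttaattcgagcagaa
mt-Co1, chromosome 2 copy: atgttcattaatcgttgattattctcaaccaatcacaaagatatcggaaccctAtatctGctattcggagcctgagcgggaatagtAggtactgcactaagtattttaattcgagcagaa
How reads that match in several places were handled is not given in the sources used here. In what follows, the 6 genes are called the genes inside the chromosome 1 copy, as opposed to the other 7. Of these 7, mt-Nd4 lies in the copy with its first 876 bases and mt-Co1 from base 1063 on.

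The libraries held 4223595 to 15573360 counts on genes. Nlrp5 itself was at 10110 to 29130 normalized counts in Nlrp5+/+ oocytes, at 5062 to 13470 in Nlrp5+/- oocytes and at 1362 to 2556 in Nlrp5-/- oocytes. The 10 oocyte markers were detected in every group. The 16 markers of granulosa cells, the somatic cells around the oocyte, summed to 279 to 664 CPM (counts scaled to library depth) in the 32 staged oocytes and to 1290 CPM in oocyte 15. The 10 sets of libraries with the same first index each held 1 genotype, so that genotype and set cannot be told apart.

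Levels were far from even along the chromosome. Per kb of gene, mt-Co1 had the highest mean normalized count over the 33 oocytes, 5457 ± 2940 (SD). It was followed by mt-Cytb with 4590 ± 1930 and mt-Nd1 with 4180 ± 2470. These neighbours were not clearly ordered, since mt-Co1 was above mt-Cytb in 19 of 33 oocytes and mt-Cytb above mt-Nd1 in 21. A step followed to mt-Nd5, at 1155 ± 535 per kb, which was below mt-Nd1 in 31 of 33 oocytes. Next were mt-Nd4 with 832.1 ± 363 and mt-Nd2 with 824.0 ± 460 per kb, which did not differ beyond their spread. The only gene on the minus strand, mt-Nd6, had 323.8 ± 158 per kb. Its end overlaps that of mt-Nd5, and the library does not mark strand.

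By their means, all 6 genes inside the chromosome 1 copy were lower than these, from 60.82 per kb for mt-Co2 to 205.4 for mt-Atp6, although mt-Nd6 was above mt-Atp6 in only 24 of 33 oocytes. Their order among themselves was loose, as mt-Atp6 was above mt-Nd3 in 16 of 33 oocytes and mt-Atp8 above mt-Nd4l in 13. The genes mt-Atp8 and mt-Atp6 overlap, as do mt-Nd4l and mt-Nd4, and reads in the overlap cannot be assigned by strand. Counts of 0 were found for mt-Atp8 in 5 oocytes, for mt-Nd3 and mt-Nd4l in 2 and for mt-Atp6 and mt-Co3 in 1. The 6 genes together took 0.0614% to 4.70% of the mitochondrial counts of an oocyte. The part of the copy in these levels was not tested.

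**Figure D1:**
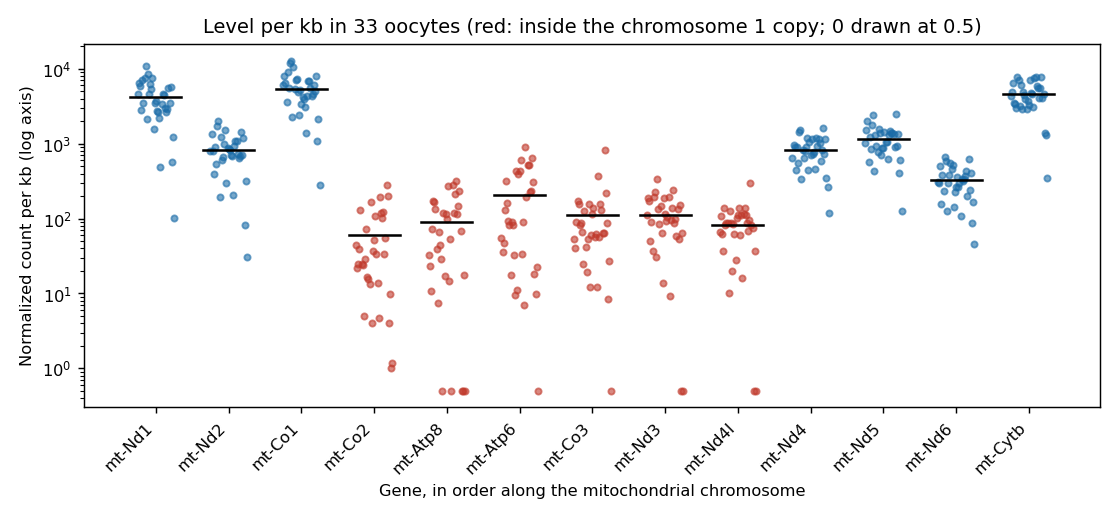
Normalized count per kb (log axis) of the 13 genes in order along the chromosome, with 1 point for each of 33 oocytes and a bar at the mean. Red points are the 6 genes inside the chromosome 1 copy, whose means lie between 60.82 and 205.4, while those of the other 7 (blue) lie between 323.8 and 5457. Values of 0 are drawn at 0.5.

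Oocytes also varied differently in these 2 sets of genes. Across 33 oocytes, Pearson's r of log2 normalized counts was 0.79 to 0.97 among the 21 pairs of the other 7 genes, with a median of 0.88. Among the 15 pairs inside it, r was 0.39 to 0.93, with a median of 0.75. Pairs of 1 gene from each set had a median of 0.68. The coefficient of variation over the 33 oocytes was 42.0% for mt-Cytb, the lowest of the 7, and 59.1% for mt-Nd1, the highest of the 7. Of the 6 genes inside the copy it was lowest for mt-Nd4l, 66.8%, and highest for mt-Co3, 134%. These values share libraries and depth, and the low counts of the genes inside the copy add counting error.

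According to the methods, the libraries had passed a screen that included a low share of mitochondrial reads. The share of counts that fell on the 13 genes had a median of 0.288% and ran from 0.0175% in oocyte 15 (exact 95% binomial interval 0.0166% to 0.0184%) to 0.618% in oocyte 54, an NSN oocyte of Nlrp5+/- (0.612% to 0.624%). Intervals cover counting error only, since PCR reads are not independent molecules. NSN oocytes of Nlrp5+/+ had shares of 0.305%, 0.392%, 0.394% and 0.207%. In NSN oocytes of Nlrp5-/- they were 0.332%, 0.152%, 0.263% and 0.224%. The ranges of these groups overlapped, and so did that of the 9 Nlrp5+/- oocytes, with a lowest value of 0.140%, a median of 0.351% and a highest of 0.618%.

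Shares were lowest in SN oocytes of Nlrp5-/-, with 0.0667% in oocyte 7 and 0.104% in oocyte 31. The 6 SN oocytes of Nlrp5+/+ had 0.101% at the lowest, a median of 0.261% and 0.374% at the highest. Those of Nlrp5+/- (n = 7) had a lowest share of 0.243%, a median of 0.295% and a highest of 0.420%. By share, oocyte 31 thus lay above the lowest Nlrp5+/+ oocyte, number 80, and both Nlrp5-/- oocytes lay below all 7 of Nlrp5+/-. Oocytes 80 and 31 were at similar depth, with 10201947 and 10621860 counts.

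**Figure D2:**
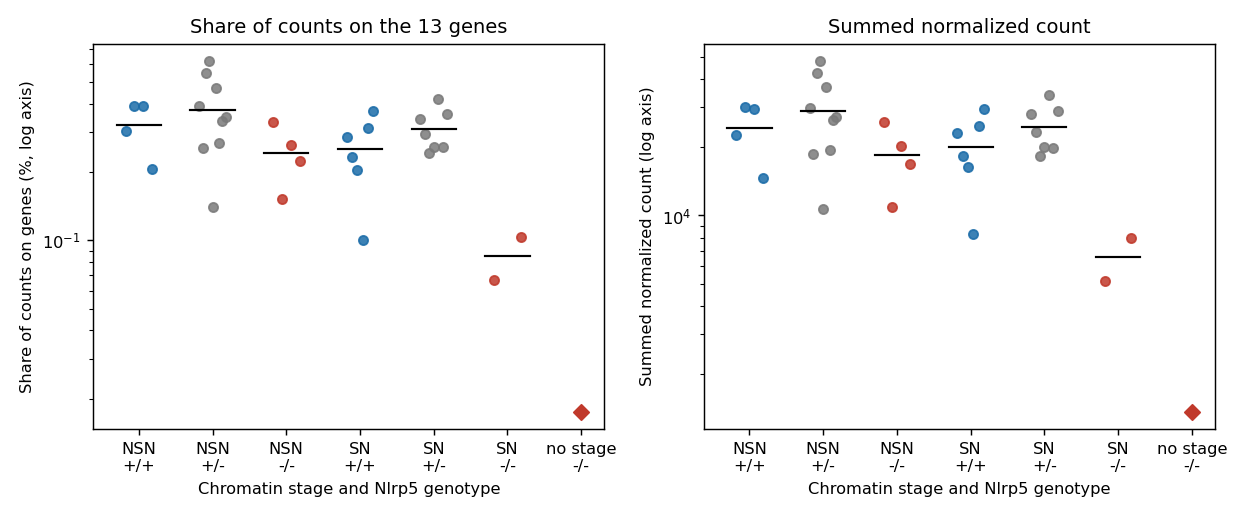
Share of counts on genes that fell on the 13 genes (left, %) and their summed normalized count (right), both on log axes, with 1 point for each oocyte and a bar at the mean of each stage and genotype. The Nlrp5-/- SN oocytes had summed counts of 5173 and 7968, below every other staged oocyte, and the diamond is oocyte 15.

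The summed normalized count of the 13 genes was 3.05-fold lower in SN oocytes of Nlrp5-/- than of Nlrp5+/+. It was 5173 and 7968 in the Nlrp5-/- oocytes. In Nlrp5+/+ oocytes it was 8252 at the lowest, 20693 at the median and 29516 at the highest. The groups did not overlap, but the lowest Nlrp5+/+ oocyte was close to the higher Nlrp5-/- one. The difference was -1.61 on the log2 scale, against an SD over oocytes of 0.62. Against Nlrp5+/- it was -1.90, with an SD of 0.35, and the Nlrp5+/- oocytes ran from 18363 to 33747. Only 2 Nlrp5-/- oocytes stand behind both values. Without oocyte 7 the first became -1.33 and without oocyte 31 it became -1.95.

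All 13 genes were at least 2-fold lower in SN Nlrp5-/- oocytes than in SN Nlrp5+/+ oocytes. Among all 13351 genes compared, 5.99% were at least 2-fold lower and 4.07% at least 2-fold higher, and the median log2 difference was 0.00 against -1.88 for the 13 genes. All 13 were also at least 2-fold lower than in Nlrp5+/-, where the background was 5.56% lower and 3.35% higher. In that comparison, 3 of 8 granulosa cell markers that passed were at least 2-fold higher in Nlrp5-/- and 2 of 4 theca and interstitial cell markers lower. The comparisons with Nlrp5+/+ and Nlrp5+/- share the 2 Nlrp5-/- oocytes. The 13 genes also varied together across oocytes, so that they are not 13 separate observations. Without oocyte 7, 9 of the 13 genes were still at least 2-fold lower than in Nlrp5+/+ and 12 than in Nlrp5+/-. Summed granulosa cell markers were at 419 and 327 CPM in the Nlrp5-/- oocytes and at 317 to 412 in those of Nlrp5+/+, and oocyte markers were at 29400 and 29200 against 25600 to 31600. Of the 16 granulosa cell markers, 9 passed the filter, and 4 of these were at least 2-fold higher in Nlrp5-/- and none 2-fold lower. The largest change was in Inha, at 57.9 to 476 normalized counts in Nlrp5-/- against 0 to 45.2 in Nlrp5+/+. Next were Hsd17b1, at 5.07 to 109 against 0 to 7.79, and Fst, at 2.17 to 58.0 against 0 to 7.79. Wt1, Krt18 and Bex2 had no count in either Nlrp5-/- oocyte. Of the 11 markers of stroma, vessels and blood, 6 passed and 4 of these were at least 2-fold higher, with sums of 79.9 and 101 CPM against 71.0 to 82.2, and Cdh5 and Ptprc had no count in either Nlrp5-/- oocyte. The 8 markers of theca and interstitial cells summed to 7.91 to 11.5 CPM, above all of Nlrp5+/+, at 4.09 to 7.20, and Hhip had no count in either Nlrp5-/- oocyte. The part of these markers in the result was not tested.

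The difference was clearest in mt-Cytb, the cytochrome b of complex III. Its normalized count was 1587 and 1508 in the Nlrp5-/- SN oocytes. In Nlrp5+/+ it was 3527 at the lowest, 6796 at the median and 8936 at the highest. The groups were well apart, with a log2 difference of -2.11 (SD over oocytes 0.48) that stayed between -2.24 and -2.01 when any 1 oocyte was left out. Against Nlrp5+/-, whose oocytes ran from 4630 to 8866 with a median of 6368, it was -1.99.

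Among the genes of complex I, 2 were also apart from every Nlrp5+/+ oocyte. For mt-Nd4, the Nlrp5-/- values of 484 and 361 lay below all of Nlrp5+/+, which ran from 634 through a median of 1179 to 1631. In mt-Nd5 they were 744 and 1091, against 1147, 2157 and 2681 at the lowest, median and highest. These 2 genes and mt-Cytb were the 3 of 13 in which both Nlrp5-/- oocytes lay below every Nlrp5+/+ oocyte, as did 7.85% of all genes. Against Nlrp5+/- it was 9 of 13 genes, and 5.81% of all genes.

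The other complex I genes not inside the copy overlapped through oocyte 80. The normalized count of mt-Nd1 was 547 and 1179 in Nlrp5-/-, and 475, 2595 and 4400 at the lowest, median and highest of Nlrp5+/+. That of mt-Nd2 was 86.4 and 334, against 214, 801 and 1143. For mt-Nd6 it was 45.9 and 86.1, against 56.2, 161 and 188. In each of the 3 genes, oocyte 80 lay between the Nlrp5-/- oocytes or below them. Their log2 differences were -1.57, -1.88 and -1.14. Without oocyte 31, mt-Nd2 was at -3.15, and without oocyte 7, mt-Nd6 was at -0.76, which is less than 2-fold. The same held for mt-Nd5 at -0.95. These 2, mt-Co1 and mt-Nd3 were the genes that rested on oocyte 7 for their 2-fold difference.

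In complex IV, mt-Co1, the catalytic subunit, was at 1660 and 3335 in Nlrp5-/- SN oocytes. Its values in Nlrp5+/+ were 2174 at the lowest, 6298 at the median and 10520 at the highest. The log2 difference of -1.29 became -0.88 without oocyte 7. Against Nlrp5+/-, with 6708 to 12542, the groups did not overlap and the difference was -1.84.

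The 6 genes inside the chromosome 1 copy had very few counts in these oocytes. The normalized count of mt-Co2 was 6.7 and 0.7, against 3.2, 48.8 and 134 in Nlrp5+/+. That of mt-Co3 was 6.7 and 21.0, against 9.6, 46.8 and 292. For mt-Atp6 it was 6.7 and 15.2, against 4.8, 97.4 and 616. Each of the 3 groups overlapped, and in all 3 genes the highest Nlrp5+/+ value was from oocyte 85. Oocyte 7 had no count of mt-Atp8, mt-Nd3 or mt-Nd4l, which allows up to 4.05 normalized counts. Oocyte 31 had 3.6 normalized counts of mt-Atp8, against 0, 17.8 and 57.8 in Nlrp5+/+. Its mt-Nd3 was at 22.4, against 3.2, 34.5 and 67.0, and its mt-Nd4l at 10.9, against 4.8, 33.4 and 41.3. The log2 differences of the 6 genes, from -1.63 for mt-Nd3 to -4.13 for mt-Atp6, depend on the value added before taking logs and on single oocytes. Without oocyte 31, mt-Nd3 was at -5.24 and mt-Nd4l at -4.89, and without oocyte 7 they were at -0.69 and -1.32. Without oocyte 85, mt-Atp6 was at -3.41 and mt-Co3 at -1.82.

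**Figure D3:**
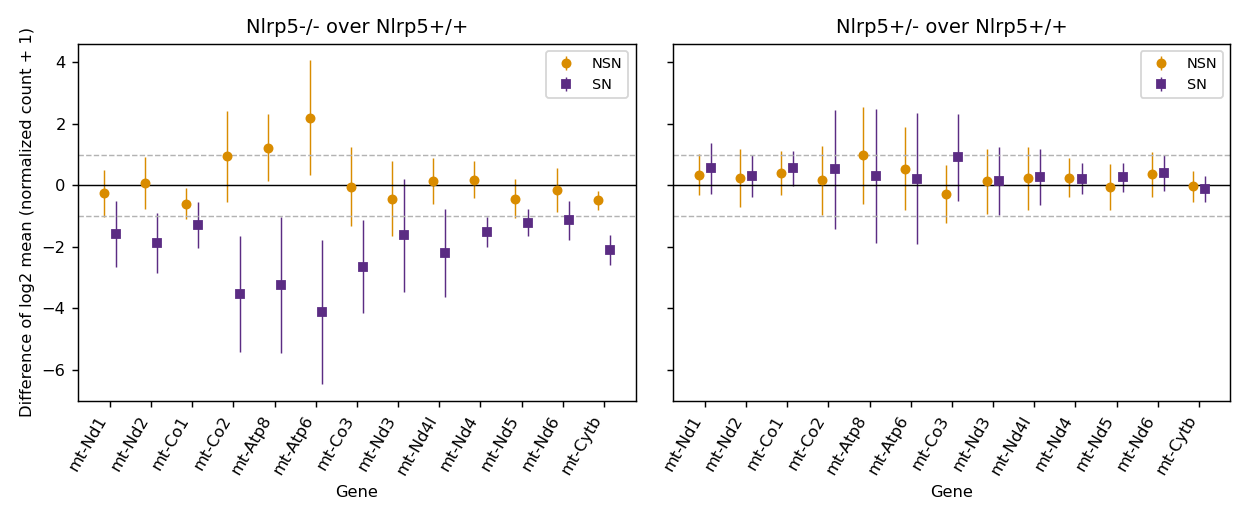
Difference of log2 mean normalized count (plus 1) for each of the 13 genes, for Nlrp5-/- over Nlrp5+/+ (left) and Nlrp5+/- over Nlrp5+/+ (right), with NSN as orange circles and SN as purple squares. Bars are the pooled SD of log2 values over oocytes and dashed lines mark 2-fold, and on the left all 13 SN points lie below the lower dashed line.

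In NSN oocytes the genotypes overlapped. The summed normalized count was 22646, 30141, 29453 and 14623 in Nlrp5+/+ and 25905, 10870, 20320 and 16836 in Nlrp5-/-. The log2 difference was -0.39, within the SD over oocytes of 0.51, and against Nlrp5+/- it was -0.64 with an SD of 0.63. The 9 Nlrp5+/- oocytes had a lowest sum of 10713, a median of 27250 and a highest of 47610. Whether the genotype difference is larger in SN than in NSN oocytes was not tested.

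The 2 genes mt-Atp6 and mt-Atp8, both inside the chromosome 1 copy, were at least 2-fold higher in Nlrp5-/- NSN oocytes than in Nlrp5+/+ and none of the 13 was 2-fold lower, where 4.93% of all genes were higher and 3.21% lower. The normalized count of mt-Atp6, a channel subunit of ATP synthase, was 293, 7.6, 265 and 292 in oocytes 13, 14, 29 and 30 of Nlrp5-/-. It was 37.6, 24.5, 31.9 and 89.4 in Nlrp5+/+. In Nlrp5-/-, 3 of 4 oocytes were above all Nlrp5+/+ ones and oocyte 14 was below them. The log2 difference was 2.20, with an SD over oocytes of 1.87.

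Its neighbour mt-Atp8, which shares bases with it, was at 24.0, 3.5, 23.7 and 20.4 in the Nlrp5-/- oocytes and at 6.7, 4.7, 2.2 and 14.8 in Nlrp5+/+. The log2 difference of 1.22 became 0.96 without oocyte 79. Against Nlrp5+/-, mt-Atp6 alone was at least 2-fold higher, with a log2 difference of 1.66, and none was lower, where the background was 3.07% higher and 3.43% lower. In that comparison 5 of 11 granulosa cell markers that passed, among them Hsd17b1, Gja1 and Inha, and 2 of 6 for stroma, vessels and blood were at least 2-fold higher, and 1 of 5 for theca and interstitial cells, Cyp17a1, was lower. Their part was not tested. The Nlrp5+/- values of mt-Atp6 were 6.6 at the lowest, 55.9 at the median and 217 at the highest. With -1.0 on the log2 scale, mt-Co1 came just short of 2-fold lower. It was at 7536, 3739, 8159 and 5312 in Nlrp5-/-, against 3466, 11446 and 19969 at the lowest, median and highest of Nlrp5+/-. When oocyte 13, 29, 48, 56, 62, 63 or 64 was left out, it was at least 2-fold lower. The difference then ran from -1.16 without oocyte 29 to -0.82 without oocyte 14.

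Among these 4 Nlrp5-/- oocytes, number 14 had the lowest sum and the highest summed granulosa cell markers, 664 CPM against 286 to 441 in the other 3 and 279 to 474 in Nlrp5+/+. Of the 16 granulosa cell markers, 10 passed the filter, and 5 of these were at least 2-fold higher in Nlrp5-/- than in Nlrp5+/+ and none 2-fold lower. Gja1 was at 13.2 to 515 normalized counts in Nlrp5-/- against 0 to 4.70 in Nlrp5+/+, and Inha at 23.1 to 906 against 0 to 10.1. In these genes all 4 Nlrp5-/- oocytes, not only oocyte 14, lay above every Nlrp5+/+ oocyte. Hsd17b1 overlapped, at 1.58 to 329 against 0 to 3.36. Fst, Amh, Foxl2 and Krt18 had no count in any NSN oocyte of Nlrp5+/+. Of the 11 markers of stroma, vessels and blood, 7 passed and 6 of these were at least 2-fold higher in Nlrp5-/-, with sums of 90 to 134 CPM that lay above all of Nlrp5+/+, at 46.2 to 79, while Ptprc had no count in any of the 4 Nlrp5-/- oocytes. Sums of theca and interstitial cell markers overlapped, at 11.2 to 47.1 CPM against 11.3 to 23.6. Of the 3 that passed, Cyp11a1 was at least 2-fold higher, at 20.3 to 122 normalized counts against 6.45 to 21.5, and none was lower. The part of these markers in the result was not tested. Without oocyte 14 the difference of the sum from Nlrp5+/+ was -0.20, and mt-Co2 joined mt-Atp8 and mt-Atp6 as at least 2-fold higher.

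**Figure D4:**
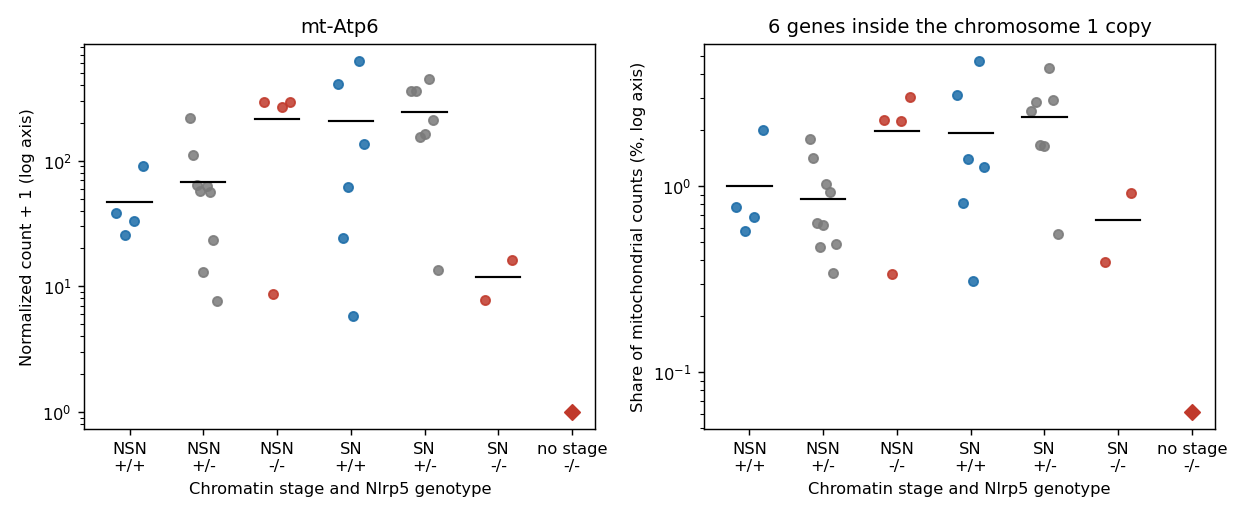
Normalized count of mt-Atp6 plus 1 (left) and the share of mitochondrial counts taken by the 6 genes inside the chromosome 1 copy (right, %), both on log axes, with 1 point for each oocyte and a bar at the group mean. In NSN Nlrp5-/- oocytes, 3 points of mt-Atp6 lie between 265 and 293 and 1 at 7.6, and the diamond is oocyte 15.

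Nlrp5+/- oocytes were close to Nlrp5+/+ oocytes in both stages. None of the 13 genes was 2-fold apart in NSN oocytes, where 2.03% of all genes were higher and 1.09% lower, nor in SN oocytes, where 1.14% were higher and 0.805% lower. The log2 difference of the sum was 0.25 in NSN oocytes, within the SD over oocytes of 0.62, and 0.29 in SN oocytes, within 0.50. The nearest to it in NSN oocytes was mt-Atp8, with 0.98, and it passed 2-fold when oocyte 87 or some others were left out. In SN oocytes 12 of the 13 genes were above Nlrp5+/+ by their means, all less than 2-fold, while 50.9% of all genes were below Nlrp5+/+. Of the markers that passed, 1 of 7 for granulosa cells, 2 of 3 for theca and interstitial cells and 5 of 7 for stroma, vessels and blood were at least 2-fold higher in these SN oocytes. In NSN oocytes they were 2 of 6, 2 of 4 and 3 of 5, and 1 of the 4 theca markers was lower. Their part in the differences was not tested. The largest difference in SN oocytes was mt-Co3, with 0.91, and it passed 2-fold when oocyte 38, 39, 40, 55 or 85 was left out. Its Nlrp5+/- values were 50.7, 102 and 645 at the lowest, median and highest, and the highest was from oocyte 46, with the next at 170.5.

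Between stages, the sum differed by less than the spread in Nlrp5+/+ and Nlrp5+/-. SN over NSN it was -0.27 on the log2 scale in Nlrp5+/+ (SD over oocytes 0.60) and -0.22 in Nlrp5+/- (SD 0.55). In Nlrp5-/- it was -1.49 (SD 0.51), since the 2 SN oocytes lay below all 4 NSN oocytes. There 12 of 13 genes were at least 2-fold lower and none higher, while 11.4% of all genes were lower and 3.32% higher. The exception, mt-Nd5, was at -0.94. Of the markers that passed, 4 of 11 for granulosa cells, 3 of 4 for theca and interstitial cells and 1 of 7 for stroma, vessels and blood were at least 2-fold lower too, and their part in the result was not tested. In 5 of the 13 genes both SN oocytes lay below every NSN oocyte, as did 10.8% of all genes. Without oocyte 7, 8 genes were at least 2-fold lower. The genotype comparison of SN oocytes and this one share both oocytes.

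A few genes inside the chromosome 1 copy were higher in SN than in NSN oocytes of the other genotypes. In Nlrp5+/+ these were mt-Co2, mt-Atp8 and mt-Atp6, with none of the 13 lower, and the background was 3.97% higher and 8.82% lower. In Nlrp5+/- they were mt-Co2, mt-Atp8, mt-Atp6 and mt-Co3, with none lower, where it was 2.02% and 7.21%. Of these, mt-Atp8 in Nlrp5+/- was at 1.04 and no longer 2-fold apart when any 1 of 8 of the 16 oocytes was left out (lowest 0.78, without oocyte 38). The largest was mt-Atp6 in both. In Nlrp5+/+ it was at 37.6, 24.5, 31.9 and 89.4 in NSN oocytes and at 4.8, 97.4 and 616 at the lowest, median and highest of SN oocytes, a log2 difference of 2.16 that became 1.44 without oocyte 85. In Nlrp5+/- the NSN values were 6.6, 55.9 and 217 and the SN values 12.5, 210 and 445, a difference of 1.84. The groups overlapped in both genotypes. Of the markers that passed in Nlrp5+/+, 2 of 6 for granulosa cells and 1 of 4 for stroma, vessels and blood were at least 2-fold higher in SN oocytes and 2 of 3 for theca and interstitial cells lower. In Nlrp5+/-, 2 of 7 granulosa cell markers were higher and 1 lower, 1 of 6 for stroma, vessels and blood was higher and 2 of 4 for theca and interstitial cells were lower. The part of the markers in these stage differences was not tested.

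The other genes were alike in this. In Nlrp5+/+, mt-Co2 was at 30.2, 15.1, 17.0 and 26.7 in NSN oocytes and at 3.2, 48.8 and 134 at the lowest, median and highest of SN oocytes. Its log2 difference of 1.25 became 0.75 without oocyte 85. Over the same oocytes mt-Atp8 was at 6.7, 4.7, 2.2 and 14.8 and at 0, 17.8 and 57.8, a difference of 1.71. In Nlrp5+/- the lowest, median and highest NSN and SN values of mt-Co2 were 3.4, 16.3 and 87.9 and 2.8, 69.2 and 194. For mt-Atp8 they were 0, 9.0 and 35.4 and 0, 29.9 and 64.5. For mt-Co3 they were 15.4, 51.3 and 121 and 50.7, 102 and 645. All 3 overlapped between stages, and without oocyte 46 the difference of mt-Co3 fell from 1.58 to 0.72.

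Within the 7 genes not wholly inside the copy, proportions were compared between stages. They were described with ratios of counts within an oocyte, which do not depend on its depth, over all 21 pairs of these 7 genes. In Nlrp5+/+, NSN and SN oocytes did not overlap in 4 of 21 pairs, in Nlrp5+/- in 1 and in Nlrp5-/- in 4. Among all pairs of abundant nuclear genes, 9.76%, 1.53% and 20% did not overlap, so that the count in Nlrp5-/- was near the background. Of the mitochondrial pairs without overlap, 3 of 4 in Nlrp5+/+, the 1 in Nlrp5+/- and 3 of 4 in Nlrp5-/- held mt-Nd1. It was lower in SN oocytes relative to the other gene of the pair. Pairs that share a gene are not independent and these are few, so they describe the oocytes and are not read as a pattern of mt-Nd1. The pair shared by Nlrp5+/+ and Nlrp5+/- was mt-Nd1 to mt-Nd4. In Nlrp5+/+ the NSN oocytes had 4.31 to 5.04 counts of mt-Nd1 per count of mt-Nd4 and the SN oocytes 0.749 to 3.39. In Nlrp5+/- they had 3.74 to 7.11 and 2.0 to 3.36. In Nlrp5-/- they had 2.30 to 4.46 and 1.13 and 3.27, which overlapped.

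Ratios to mt-Cytb show the same oocytes in another way, and were chosen for display after their values had been seen. In Nlrp5+/+ NSN oocytes there were 1.91, 2.20, 1.33 and 1.39 counts of mt-Co1 per count of mt-Cytb, and in SN oocytes 0.617, 0.844 and 1.18 at the lowest, median and highest. For mt-Nd1 the NSN values were 0.896, 1.08, 0.751 and 0.668, and the SN values 0.135, 0.386 and 0.492. Neither ratio overlapped between these stages of Nlrp5+/+. In the other genotypes the ratio of mt-Nd1 to mt-Cytb overlapped, at 0.57 to 1.77 in NSN and 0.432 to 1.04 in SN oocytes of Nlrp5+/-, and at 0.462 to 1.62 in NSN and 0.344 and 0.782 in SN oocytes of Nlrp5-/-. In Nlrp5+/- the ratio of mt-Co1 to mt-Cytb was 0.959 to 3.60 in NSN and 1.08 to 2.41 in SN oocytes, which overlapped. Nlrp5-/- oocytes had 1.68, 1.14, 1.91 and 1.4 in NSN and 1.05 and 2.21 in SN, so that 1 SN oocyte lay below and the other above all NSN oocytes.

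**Figure D5:**
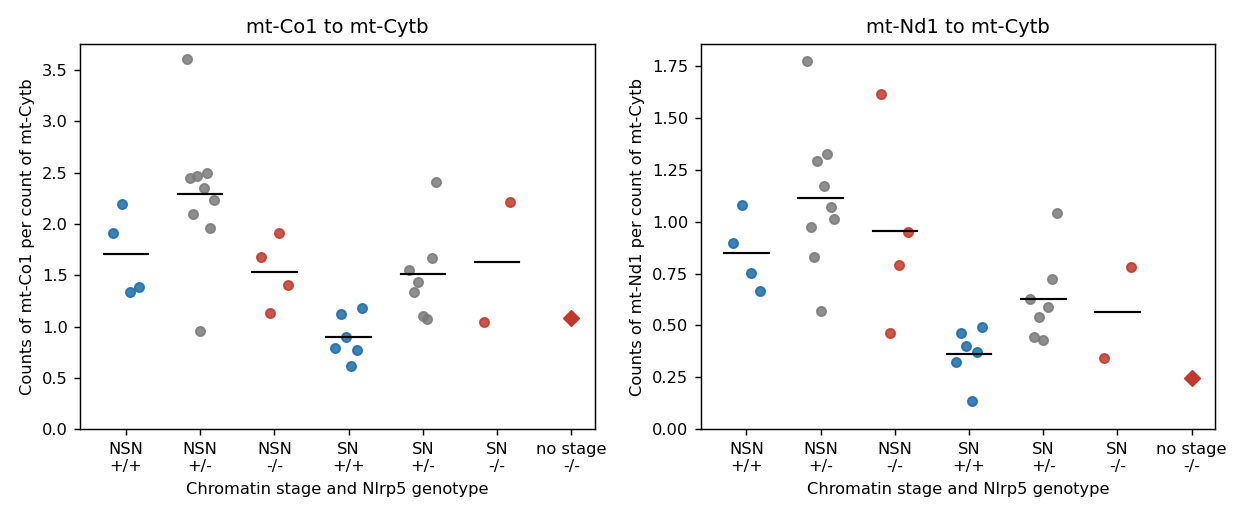
Counts of mt-Co1 (left) and mt-Nd1 (right) per count of mt-Cytb, with 1 point for each oocyte and a bar at the mean of each stage and genotype. In Nlrp5+/+ the 4 NSN oocytes lie above all 6 SN oocytes in both panels, and the diamond is oocyte 15.

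Oocyte 15, which has no stage, stood apart from every other oocyte. Its summed normalized count was 1368, against 5173 in the next lowest. Most of what remained was mt-Co1, with 428 normalized counts, and mt-Cytb, with 395. There was no count of mt-Atp8, mt-Atp6, mt-Co3, mt-Nd3 or mt-Nd4l. It also had the highest granulosa cell markers, at 1290 CPM, and the lowest oocyte markers, at 18000, against at least 24900 in the staged oocytes. The part of these in its value was not tested. It entered no comparison by stage.

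Among the 10 sets of libraries with the same first index, the range of the sum was widest relative to its lowest value in oocytes 13, 14 and 15 (1368 to 25905) and narrowest, among sets of more than 1 oocyte, in oocytes 69, 70 and 72 (18218 to 23168). The 2 Nlrp5-/- SN oocytes were in different sets, and oocytes 29 and 30, from the set of oocyte 31, had 20320 and 16836. Of the 6 sets that held both stages, SN oocytes had the lower mean sum in 4. The log2 difference SN over NSN was -0.13, -1.28 and 0.89 in the 3 sets of Nlrp5+/+, 0.15 and -0.22 in the 2 of Nlrp5+/-, and -1.22 in the 1 of Nlrp5-/-. Across the 33 oocytes, Pearson's r between the log2 sum and log2 depth was -0.10. Between the log2 sum and log2 summed granulosa cell markers it was -0.68. The latter was -0.28 without oocyte 15 and -0.17 without oocytes 15 and 14, which have the most extreme marker sums. Within stages it was -0.49 over 17 NSN oocytes and -0.04 over 15 SN oocytes. In SN oocytes, Inha was at 57.9 to 476 normalized counts in Nlrp5-/- against 0 to 45.2 in Nlrp5+/+. The marker sums of the same groups were 419 and 327 CPM against 317 to 412. In NSN Nlrp5+/+ oocytes the sum was 279 to 474 CPM with at most 10.1 normalized counts of Inha and 4.70 of Gja1. The sum thus hardly follows such markers, and its r cannot show whether RNA of granulosa cells goes with the mitochondrial sum. Single markers were not tested.

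Nuclear genes whose products act on these transcripts or join the same complexes were compared in the same way. Of 30 genes for mitochondrial transcription and RNA processing, 29 passed the filter (mean normalized count, 10 or more) in the SN comparison of Nlrp5-/- with Nlrp5+/+. Their median log2 difference was -0.23, and 2 were at least 2-fold higher and none lower, in a comparison where 4.07% of all genes were higher and 5.99% lower. In lists of this size these counts are near those shares. The 2 were Hsd17b10, a subunit of mitochondrial RNase P, with 95.5 and 147 against 38 to 70.3 in Nlrp5+/+, and Tbrg4, with 123 and 208 against 56.7 to 98.3. Of 16 genes for mitochondrial DNA replication, 14 passed, with Mpv17 higher, at 14.8 and 36.9 against 0 to 18.1, and Primpol lower, at 68.8 and 124 against 117 to 282. Of 23 genes for mitochondrial aminoacyl-tRNA synthetases and the amidotransferase, 22 passed and none was 2-fold apart. All 26 nuclear partners in complexes I, III, IV and V passed, with a median of 0.01, and 2 were higher, Atp5d of ATP synthase with 434 and 437 against 121 to 293, and Uqcrc1 of complex III with 208 and 221 against 69.9 to 132.

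Against SN Nlrp5+/-, none of 29 transcription and processing genes, none of 22 synthetase genes and none of 26 nuclear partners was 2-fold apart, where 3.35% of all genes were higher and 5.56% lower. Of 15 replication genes, Mpv17 was higher and Polg2, an accessory subunit of the mitochondrial DNA polymerase, was lower, with 0 and 5.07 against 9.32 to 34.6. In NSN oocytes of Nlrp5-/-, the 2 genes at least 2-fold lower than in Nlrp5+/+ were Lars2 and Hars2, mitochondrial leucyl- and histidyl-tRNA synthetases, of 23 that passed in their list, where 3.21% of all genes were lower. None of the other 3 lists had such a gene. Lars2 was at 440 to 565 normalized counts in Nlrp5-/- and at 620 to 14650 in Nlrp5+/+. The same 2 genes were at least 2-fold lower in NSN Nlrp5+/- oocytes than in Nlrp5+/+, with log2 differences of -2.74 and -1.10 and a background of 1.09% lower, and no gene of their list was 2-fold apart between Nlrp5-/- and Nlrp5+/-. The highest Lars2 value, 14650, was in oocyte 79 of Nlrp5+/+, and the NSN Nlrp5+/+ mean of 5380 rests in part on it.

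Between stages, all but 1 of the listed genes that differed 2-fold were lower in SN oocytes, and genes lower in SN oocytes also outnumbered higher ones among all genes, with 8.82% against 3.97% in Nlrp5+/+, 7.21% against 2.02% in Nlrp5+/- and 11.4% against 3.32% in Nlrp5-/-. In Nlrp5+/+ they were 3 of 29 transcription and processing genes (Mterf3, Tfam and Hsd17b10), 6 of 23 synthetase genes, 2 of 15 replication genes and 1 of 26 nuclear partners. For Tfam, which packages mitochondrial DNA and starts its transcription, the NSN oocytes ran from 263 to 472 normalized counts and the SN oocytes from 87.6 to 253. Mterf3, a factor of the termination factor family, ran from 177 to 336 and from 40.2 to 114. In Nlrp5+/- the same lists, in that order, had 2 of 29, 1 of 22, 3 of 14 and 1 of 26 genes lower. In Nlrp5-/- they had 2 of 29, 1 of 22, 2 of 15 and 1 of 26. The counts include Uqcrc1 and Slc25a36, a carrier of pyrimidine nucleotides into mitochondria, which were lower in SN oocytes of all 3 genotypes. Both are among the marker genes with which the oocytes were staged, so that their difference between stages is no finding. The exception was Lars2 in Nlrp5-/-, at 1.59.

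The 5 nuclear genes that followed the sum of the 13 genes most closely were Arhgap20os, Glmn, Nae1, Gm10033 and Rfk, among 8428 genes whose mean normalized count reached 100. Across 33 oocytes their Pearson's r with the log2 sum was 0.88 to 0.89. Without oocytes 15, 7 and 31 it was 0.73 to 0.77. H2az2 and Tshz1 had the lowest r, -0.79 and -0.77, and both were highest in oocyte 15. Lars2 had an r of -0.23. These values share libraries and rest in part on the 3 oocytes with the lowest sums.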

How the data were processed

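RNA of 33 single oocytes was analysed. Reads had been trimmed (Trim Galore) and mapped (HISAT2) before counting in SeqMonk. The authors deposited raw counts per gene, without normalization. The labels give GRCm38 and the methods GRCm39, in which the mitochondrial coordinates are the same. Tables of genes called by the authors, with their fold changes and p-values, and a table of read totals were not used. Of 35373 entries, 52 repeated ones were left out.

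Genotype was taken from the labels and stage, which the authors inferred from marker genes in the same RNA, from the published figures, whose plots show more Nlrp5+/- oocytes per stage than the study's wording. Counts were scaled by the median of ratios over 11845 genes with a count in every oocyte. Means over oocytes had equal weight, with a pseudocount of 1 and only genes whose mean reached 10 normalized counts in a comparison. Depth ran from 4223595 to 15573360 counts on genes per oocyte. Named were all 13 genes, the 5 nuclear genes most like their sum and the 2 least like it, Lars2, and up to 3 genes with the largest change from each list. The members and lists were chosen with earlier results of these data known. Transcripts of GENCODE vM39 were matched to GRCm39 with blastn 2.17.0, and a copy was called near-identical at 99% identity over 90% of the gene. The computation of fold changes was checked on simulated counts. Alternatives were other scalings, medians, pooled sums, other pseudocounts, filters and folds, no regard to stage, fewer genes in the sum and leaving out each oocyte. Python 3.11.15, numpy 2.4.6, pandas 2.3.3 and scipy 1.17.1 were used.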

Additional observations from a re-analysis of the deposited data

Results flagged for a closer look

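Far from the rest of their group lay 7 values in groups of 4 to 9 oocytes. Looked at were 90 sets of values, each a measure in a genotype and stage. Chance alone gives about 1 in 20 for independent sets, whereas these share oocytes and counts. Of these, 5 were in genes inside the chromosome 1 copy. These were mt-Atp6 in Nlrp5-/- NSN oocytes, where oocyte 14 was lowest at 7.6 normalized counts and the next was 265, and mt-Atp6 in Nlrp5+/- NSN oocytes, where oocyte 45 was highest at 217 and the next was 111. In Nlrp5+/+ SN oocytes, mt-Co3 was highest in oocyte 85 at 292, with the next at 108. Oocyte 46, of Nlrp5+/- SN, was highest for mt-Co3 at 645 with the next at 170.5, and for mt-Nd4l at 88.1 with the next at 33.3. It was also highest for mt-Nd5, a gene not in it, at 4576 with the next at 2539. The share of mitochondrial counts taken by the 6 genes inside the copy was highest in oocyte 87 among Nlrp5+/+ NSN oocytes, at 2.01%, with the next at 0.772%.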

How the results depend on the processing

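The comparisons are limited by the spread between oocytes, with only 2 SN oocytes of Nlrp5-/-, and those of the genes inside the chromosome 1 copy also by few counts. Of the alternative values of the summed count, 174 moved by less than 1 SD over oocytes and 3 by more. The 3 were those without regard to stage or genotype. Over all stages, with oocyte 15 included, Nlrp5-/- over Nlrp5+/+ was -0.78, against -1.61 in SN oocytes, and over Nlrp5+/- it was -1.09, against -1.90. SN over NSN across all genotypes was -0.31, against -1.49 in Nlrp5-/-. Leaving out 1 oocyte, the sum of SN Nlrp5-/- oocytes stayed between -1.95 and -1.33 over Nlrp5+/+ and between -2.25 and -1.62 over Nlrp5+/-.

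Counts of genes at least 2-fold apart are given in the order NSN Nlrp5-/- over Nlrp5+/+, NSN Nlrp5+/- over Nlrp5+/+, NSN Nlrp5-/- over Nlrp5+/-, the same for SN, then SN over NSN in Nlrp5+/+, Nlrp5+/- and Nlrp5-/-. As reported they were 2, 0, 1, 13, 0, 13, 3, 4 and 12. Apart from the ranges with 1 oocyte left out, only moves of more than 1.5 times are given, and smaller ones are not listed. Leaving out 1 oocyte gave 1 to 3, 0 to 2, 1 to 3, 9 to 13, 0 to 2, 12 to 13, 2 to 4, 2 to 4 and 8 to 13. Without regard to stage the first became 1, the third 4, the fourth 1, the sixth 4 and the last 3 each 1. With a mean of 100 or more the first became 1, the fourth 8, the seventh 1, the eighth 2 and the ninth 7. At 1.5-fold the first became 4, the second 1, the third 4, the fifth 1 and the seventh 5. At 4-fold the first became 1, the third 0, the fourth 6, the sixth 7, the seventh 1, the eighth 0 and the ninth 6. Medians gave 2 for the third and 2 for the fifth, pooled counts 1 for the second and 2 for the third, and a pseudocount of 5 gave 1 for the first. The cause was not tested, beyond fewer genes or a stricter fold.

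Among genes at least 2-fold apart, 10 differences turned in direction, each without regard to stage or genotype. Over Nlrp5+/+, mt-Atp8 was -0.70 and mt-Atp6 -0.19 in all Nlrp5-/- oocytes, against higher levels in the NSN ones, and over Nlrp5+/- mt-Atp6 was -0.20. SN over NSN across all genotypes, where Nlrp5-/- alone was below 0, gave 1.00 for mt-Co2, 0.83 for mt-Atp8, 1.02 for mt-Atp6, 0.92 for mt-Co3, 0.31 for mt-Nd4l, 0.05 for mt-Nd4 and 0.17 for mt-Cytb.

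No paired analysis was possible because the replicate numbers only follow the accession order, so that none could be made by number. Stages were compared, as values only, within the 6 sets of one first index that held both, where the sum SN over NSN was from -1.28 to 0.89. Alternatives that leave out ribosomal RNA genes or add named nuclear near-copies were not run, since no such row was used here. The 2 alternatives chosen after seeing the data, sums over only the 5 genes without an exact nuclear match and shares without the genes inside the chromosome 1 copy, moved no sum or share by more than 1 SD.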
